A study of Mus musculus with 9 samples.

Results

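B cells with CD11b on their surface were compared with B cells lacking it, both from the bone marrow of mice given lipopolysaccharide (LPS), over all genes, with the weight on genes of the B cell itself and on genes that were lower in the CD11b+ cells. It rests on 6 of the 9 RNA-seq libraries of the study, 3 from CD11b+ B cells and 3 from CD11b- B cells, and the members were taken from the sample labels. Both groups came from wild-type C57BL/6J mice that received 5 mg/kg LPS by intraperitoneal injection and were analysed after 48 hours. The age and sex of these mice are not given in the sources used here. LPS is a component of the outer membrane of Gram-negative bacteria and stands for bacterial infection in this model. The marrow cells were first depleted with antibodies to TER119, to Gr-1, to NK1.1 and to the T cell antigens CD3, CD4 and CD8, which removes red cell precursors, granulocytes, NK cells and T cells, and the B cells were then sorted by flow cytometry with and without CD11b on their surface. The CD11b+ cells are the ones the study calls myeloid-like B cells (M-B cells). Both arms therefore carried the LPS treatment and the same depletion, and no B cells from untreated mice were sequenced here, so the values say how the 2 kinds of B cell differed after LPS and nothing of what LPS changed. The remaining 3 libraries, from peritoneal macrophages (PMs) of untreated mice, were used only as a reference for myeloid levels.

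CD11b is the alpha chain of the integrin Mac-1, encoded by Itgam, and is carried by most neutrophils, monocytes and macrophages. B cells are defined by their antigen receptor, a membrane immunoglobulin paired with the signalling chains CD79A and CD79B, and by transcription factors such as PAX5, EBF1 and SPIB, which keep B cell genes on. The receptor signals through kinases of the SRC and SYK families and is held back by phosphatases such as SHP-1 and SHIP-1. A B cell that is activated can proliferate, switch its heavy chain from IgM to IgG or IgA, and become a plasma cell, which enlarges its endoplasmic reticulum and secretes antibody. The unfolded protein response is the set of chaperones and export factors that handles this load.

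Reads assigned to genes numbered between 32056102 and 34895579 in the CD11b- libraries and between 26174718 and 35251215 in the CD11b+ libraries. Values are given as FPKM, fragments scaled to gene length and to the fragments of the library, listed for replicates 1, 2 and 3 of a group in that order. The libraries of neither group were alike. On a principal component analysis of the 6 libraries, CD11b+ replicate 3 stood apart on the first component, which held 34.7% of the variance, and CD11b- replicate 3 on the second, which held 29.4%. In CD11b+ replicate 3 immunoglobulin genes took 5.03% of the reads, against 2.73% to 3.31% in the other 5 libraries, and genes of cytosolic ribosomal proteins took 6.63%, against 3.48% to 4.32%. CD11b- replicate 3 held transcripts of B cell precursors, the cells that still rearrange their receptor genes. Rag1, which cuts DNA for that rearrangement, stood at 0.0136, 0.0911 and 13.97 FPKM in the CD11b- libraries and at 0.0206, 0.0694 and 2.96 in the CD11b+ libraries. Igll1, a chain of the surrogate light chain of pre-B cells, read 0.0277, 0.0132 and 53.9 and 0.472, 1.39 and 12.7 FPKM. The interleukin-7 receptor chain gene Il7r read 0.6105, 0.615 and 36.5 and 0.694, 0.574 and 11.01 FPKM. In each of these genes both libraries numbered 3 were high, CD11b- replicate 3 more so, and the highest value among the other 4 libraries was that of Igll1 in CD11b+ replicate 2. The precursor list as a whole (18 of 20 members tested) had a median log2 fold change of -0.56, which became -0.05 without the 2 libraries numbered 3 and ran from -1.05 to 0.24 with 1 library left out (0.24 without CD11b- replicate 3). List medians and the main counts are therefore also given without them, or without 1 library, where they moved.

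**Figure D1:**
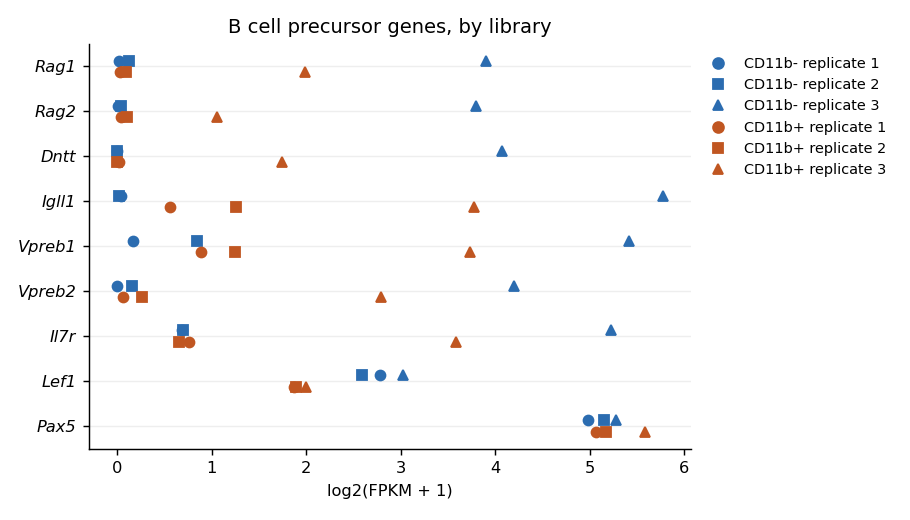
Levels of 7 precursor B cell genes and, for comparison, of Lef1 and Pax5, in each of the 6 libraries on a horizontal axis of log2(FPKM + 1), with 1 point per library, colour for the group and shape for the replicate. Rag1, Rag2, Dntt, Igll1, Vpreb1 and Il7r are high in CD11b- replicate 3, lower in CD11b+ replicate 3 and low in the other libraries, and Pax5 lies close together in all 6.

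The labels were checked against genes fixed for that purpose. Ptprc, which encodes the B220 form of CD45 in B cells, read 78.9, 72.995 and 52.6 FPKM in the CD11b- libraries and 77.96, 60.8 and 65.8 FPKM in the CD11b+ libraries, with overlap. Both chains of the B cell receptor complex, Cd79a and Cd79b, were abundant in all 6 libraries, as given further on. Itgam itself (Ensembl gene ENSMUSG00000030786, GRCm38 chr7:128062640-128118491, plus strand) was at 0.3996, 0.251 and 0.869 FPKM in the CD11b- and 1.92, 1.31 and 1.51 FPKM in the CD11b+ libraries. Every CD11b+ library lay above every CD11b- library, but the difference did not pass the test (limma log2 fold change 0.79, standard error 0.25, adjusted p = 0.5; DESeq2 adjusted p = 0.0526), and the mean in PMs was 288 FPKM. Fcer1g, the signalling chain shared by Fc receptors of myeloid cells (chr1:171229572-171234365, minus strand), rose from 1.82, 2.03 and 1.28 FPKM to 40.6, 53.9 and 35.5 FPKM, which limma put at 4.02 ± 0.21 log2 units (standard error; adjusted p = 0.00115). The calprotectin subunit gene S100a8, a neutrophil product, rose from 1.04, 0.619 and 0.899 FPKM to 179.9, 428 and 88.1 FPKM (limma log2 fold change 6.69, adjusted p = 0.00566), and its 3 CD11b+ values were far apart from each other. The sort was on the surface protein, and RNA from a few CD11b+ cells of another lineage and a low level in every CD11b+ B cell cannot be told apart in bulk samples, nor can fewer cells of a type and less RNA per cell.

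Across the 21778 genes tested, limma called 15 higher in CD11b+ cells (0.0689%) and 0 lower (0.0%) at an adjusted p under 0.05. At an unadjusted p under 0.05 it gave 1012 higher genes (4.65%) and 661 lower genes (3.04%). On the whole reads behind the FPKM, DESeq2 called 328 genes higher (1.89% of 17324) and 64 lower (0.369%), and edgeR's quasi-likelihood test with its filter on low counts called 42 higher (0.269% of 15588) and 0 lower (0.0%), with 672 lower (4.31%) at an unadjusted p. Without that filter edgeR called 416 higher (1.11% of 37400) and 155 lower (0.414%), but in 79 of the 155 the value of CD11b- replicate 3 was more than 2 times those of both other CD11b- libraries. Without that library it called 36 genes lower, of which 18 were among the 155. The labels do not say whether replicates came from separate mice, so these p-values measure the spread between the samples, which may be technical, and with 3 against 3 libraries an exact permutation test of a single gene cannot go below 0.1. The 15 genes that limma called were Fcer1g, S100a8, S100a9, S100a6, Retnlg, Clec4a3, Cd300lf, Wfdc17, Ccl8 and Anxa2, most of them known from myeloid cells, then the B-lineage and secretory genes Creld2, Sdf2l1 and Ighg2c, the pseudogene Ly6a2 and the microRNA locus Mir5618, which lies within another gene. Of the 64 genes lower in DESeq2, 63 had no overlap between the groups, and 4 had a value in CD11b- replicate 3 of more than 2 times those of both other CD11b- libraries. Without the 2 libraries numbered 3, DESeq2 called 230 genes lower (1.43% of 16094), of which 45 were among the 64, and 514 higher (3.19%), while limma still called 0 lower (743 at an unadjusted p, 3.45%) and called 29 higher (0.135% of 21548).

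Genes lower at an unadjusted p were mostly well expressed ones. The 661 genes lower at an unadjusted p had a median of 13.7 FPKM in CD11b- cells, against 0.968 FPKM for the 1012 higher genes and 1.42 FPKM for all genes tested. At or above 5 FPKM in CD11b- cells were 71.9% of the lower and 31.6% of the higher genes. A limma log2 fold change of 1 or more in size was reached by 63 of the lower genes (9.53%) and by 265 of the higher genes (26.2%). The share at or above 5 FPKM was 33.9% over all genes tested, and a mean under 1 FPKM in CD11b- cells was found for 11% of the lower, 50.5% of the higher and 46% of all genes. In CD11b+ cells the medians were 9.08 FPKM for the lower, 3.45 FPKM for the higher and 1.61 FPKM for all genes, so both sets were above genes in general there.

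**Figure D2:**
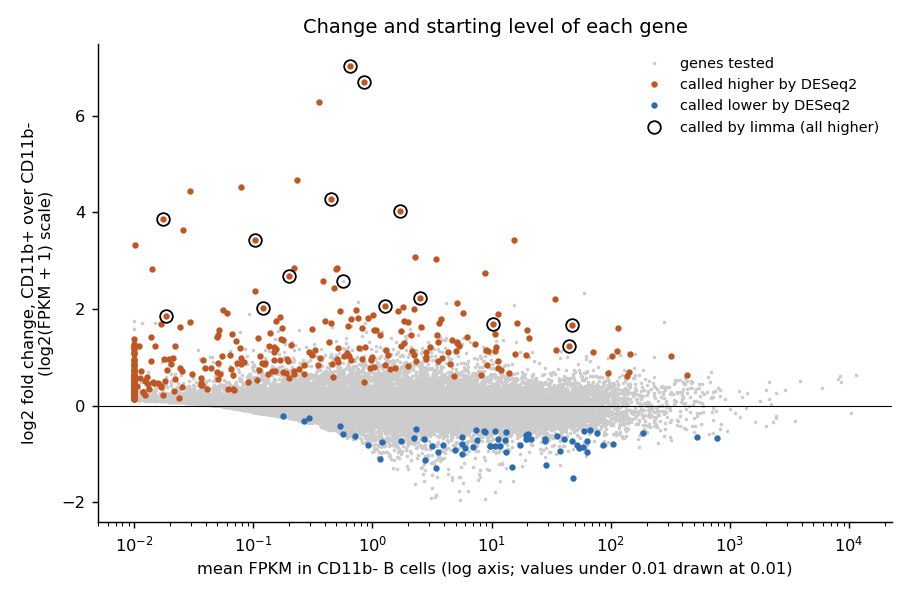
Mean FPKM in CD11b- B cells on the horizontal axis (log scale) against the limma log2 fold change of CD11b+ over CD11b- B cells on the vertical axis, 1 point per gene, with the genes DESeq2 called higher or lower coloured and the 15 genes limma called circled. The 328 higher genes spread over low levels and large changes, and the 64 lower genes lie mostly within 1 log2 unit of 0 at levels where the gene is well measured. A gene near 0 FPKM in CD11b- cells has little room to fall on this axis.

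The genes named as lower were taken by 2 rules that draw on the test results of this contrast, so their values describe the pattern and are no separate support for it. The rules gave 32 different genes, all of them called lower by DESeq2 (background 0.369%). In 31 of the 32 the groups did not overlap (background 6.32%), and 30 were also called without the 2 libraries numbered 3. No overlap was itself required by the rule on limma p, and a lower call by edgeR or DESeq2 by the other rule. These counts were thus in part fixed by the selection, and the background shares are no test of them. In limma their adjusted p ran from 0.0816 to 0.659. In 25 of the 32 the mean of the PM libraries was below that of the CD11b+ cells.

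Several were transcription factors or chromatin regulators of B cells. Lef1, the factor through which WNT signals act in early B cells (chr3:131110471-131224356, plus strand), was at 5.85, 5.03 and 7.11 FPKM in the CD11b- libraries and at 2.65, 2.72 and 2.999 FPKM in the CD11b+ libraries. All 3 CD11b+ values were close together and below the lowest CD11b- value, with a mean 2.15 times lower. Lef1 fell by DESeq2 (log2 fold change -1.12, standard error 0.22, adjusted p = 5.5e-05) and not by limma (-0.88, standard error 0.21, adjusted p = 0.34), and other annotated transcripts overlap it, whose reads cannot be told apart without strand. Without both libraries numbered 3 its DESeq2 adjusted p was 3.67e-05, so the call did not depend on those libraries.

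Spib, an ETS-family factor of B cells and plasmacytoid dendritic cells (chr7:44525993-44532071, minus strand), was the most abundant transcription factor gene of this group. It measured 747, 684 and 897 FPKM in CD11b- and 484, 532 and 438 FPKM in CD11b+ libraries, without overlap. Its log2 fold change was -0.70 ± 0.19 in DESeq2 (standard error; adjusted p = 0.0117) and, in limma, -0.67 (adjusted p = 0.441). Egr1, a zinc-finger factor induced within minutes of receptor engagement (chr18:34859823-34864984), fell from 28.01, 25.5 and 30.2 FPKM to 15.9, 18.7 and 14.9 FPKM (DESeq2 log2 fold change -0.78, adjusted p = 0.00317). A list of 23 immediate early and heat shock genes went both ways, with 12 lower and 11 higher means and a median of -0.02. DESeq2 called 1 of that list lower and 1 higher. The class IIa histone deacetylase gene Hdac9 (chr12:34047580-34917095, minus strand) fell from 7.97, 6.86 and 7.79 FPKM to 4.14, 4.55 and 3.98 FPKM (DESeq2 log2 fold change -0.86, adjusted p = 0.00017). In both genes the 3 libraries of each group lay close together, and the lowest CD11b- value exceeded the highest CD11b+ value by a wide margin. Smad1, which carries signals from receptors of bone morphogenetic proteins, was a low gene at 3.35, 2.67 and 2.197 FPKM against 1.15, 1.51 and 1.23 FPKM (DESeq2 log2 fold change -1.10, adjusted p = 0.00996), and PMs had more of it, at a mean of 5.12 FPKM.

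Further named genes encode receptors or signalling proteins. Tgfbr2, the type II receptor for TGF-beta (chr9:116084293-116175360, minus strand), stood at 35.2, 32.9 and 38.8 FPKM in CD11b- and 22.1, 25.5 and 20.97 FPKM in CD11b+ libraries, which did not overlap (DESeq2 log2 fold change -0.66, adjusted p = 0.0123). Dusp6, the phosphatase that switches off ERK, read 49.7, 42.6 and 49.8 FPKM and 31.2, 31.8 and 22.4 FPKM. The lowest of its 6 values was CD11b+ replicate 3, and it fell by DESeq2 (log2 fold change -0.76, adjusted p = 0.0196). Sufu, a negative regulator of Hedgehog signalling, read 19.3, 16.2 and 22.6 FPKM and 11.6, 13.1 and 9.91 FPKM (DESeq2 log2 fold change -0.77, adjusted p = 0.0201).

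Other genes of this kind served trafficking, glycosylation and metabolism. Clint1, an adaptor of clathrin-coated vesicles, fell from 21.4, 20.1 and 23.2 FPKM to 13.5, 13.6 and 11.6 FPKM, with a DESeq2 log2 fold change of -0.76 (adjusted p = 0.00138). Galnt10, which starts O-linked glycosylation, read 12.3, 11.7 and 11.03 FPKM in CD11b- and 6.15, 7.67 and 4.89 FPKM in CD11b+ libraries (DESeq2 adjusted p = 0.00419), and Slc35c1, the Golgi carrier of GDP-fucose, read 27.5, 27.4 and 29.9 FPKM and 17.9, 19.9 and 14.02 FPKM (DESeq2 adjusted p = 0.0207). All 3 of these genes were lower in every CD11b+ library. Rrm2b, a subunit of ribonucleotide reductase induced by p53, stood at 6.59, 5.46 and 9.098 FPKM and 3.34, 3.16 and 3.67 FPKM (DESeq2 log2 fold change -1.08, adjusted p = 0.00159). Rubcn, a regulator of autophagy, stood at 62.2, 57.1 and 60.6 FPKM and 44.1, 41.5 and 37.7 FPKM (DESeq2 adjusted p = 0.0219). Lkaaear1 (chr2:181696793-181698442, minus strand) was the only one of the 32 without a read in any CD11b+ library. It had 1.06, 1.09 and 1.32 FPKM in the CD11b- libraries, or 85 reads in all, against 0 reads in CD11b+ cells, so it was at least 25.6-fold lower when 3 reads over the group are taken as the limit that a count of 0 allows (DESeq2 adjusted p = 0.00218, limma adjusted p = 0.0816). This limit covers counting error only.

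**Figure D3:**
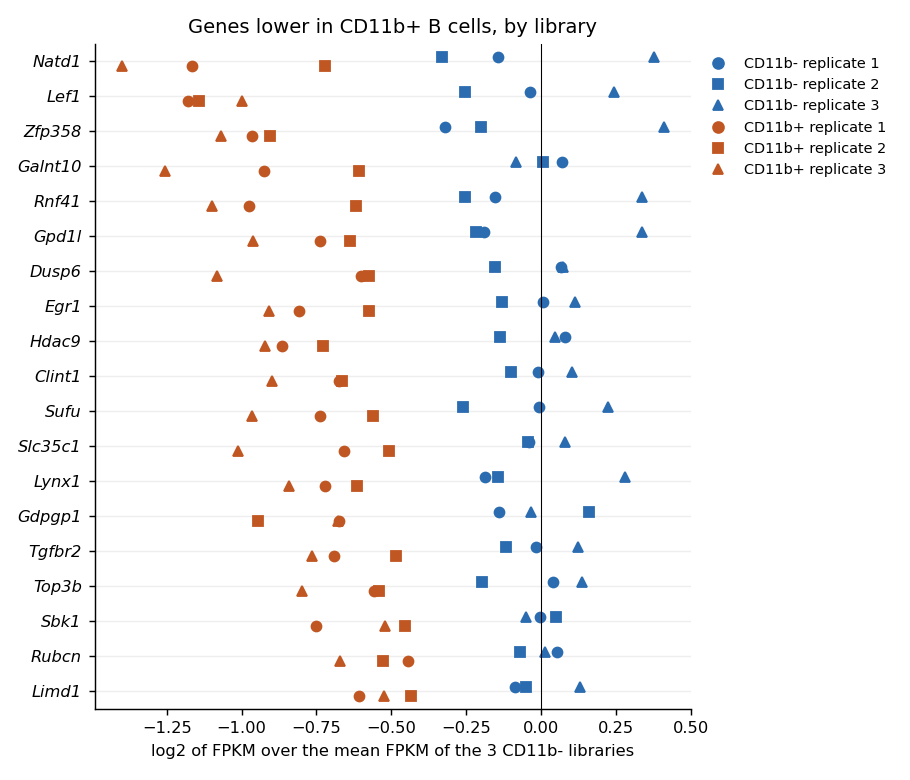
Of the 20 genes with the smallest limma p among lower, non-overlapping genes at 5 FPKM or more in CD11b- cells, 19 are plotted, each with 6 points for the 6 libraries as the log2 of FPKM over the gene's CD11b- mean. In every gene the 3 CD11b+ points lie below the 3 CD11b- points, and the limma log2 fold changes run from -0.95 to -0.51.

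The genes that define a B cell were then followed as lists, each described by its counts. Over all 21778 genes the median limma log2 fold change was 0.03, 8.63% of genes had groups that did not overlap in the higher direction and 6.32% in the lower direction, and 44.9% had a lower mean in CD11b+ cells on the log2 scale. The shares to set beside the counts of every list that follows are 4.65% higher and 3.04% lower at an unadjusted limma p under 0.05, 1.89% higher and 0.369% lower for DESeq2, and 3.19% higher and 1.43% lower for DESeq2 without both libraries numbered 3. These shares are over genes of every level. Of the 7379 genes at or above 5 FPKM in CD11b- cells, limma gave 475 lower and 320 higher at that unadjusted p. The lower share was thus larger among well expressed genes than over all genes, and lists of well expressed genes should be read beside it. Of 21 surface genes of mature B cells, 15 had a lower and 6 a higher mean in CD11b+ cells, the groups did not overlap for 7 lower and 2 higher genes, and the median was -0.12 (-0.15 without both libraries numbered 3). DESeq2 called 1 of them lower, and 5 without both libraries numbered 3. The gene called with all libraries was Fcmr, the receptor for the Fc part of IgM (chr1:130865669-130880791, plus strand), which fell from 532, 574 and 498 FPKM to 294, 419.5 and 314 FPKM (DESeq2 log2 fold change -0.66, adjusted p = 0.0483). Cd72, an inhibitory co-receptor, stood at 269, 261 and 429 FPKM and 165, 205 and 205 FPKM, without overlap, and did not pass (DESeq2 adjusted p = 0.0715). For the receptor chain Cd79b the values were 1966, 1979 and 2115 FPKM against 1374, 1646 and 1502 FPKM, or -0.42 ± 0.23 on the log2 scale (standard error; limma adjusted p = 0.688). For Cd79a they were 2249.9, 2473 and 2579.7 FPKM against 1848, 2097 and 2207 FPKM (-0.25, standard error 0.25, limma adjusted p = 0.729). The 2 chains thus lay lower in every CD11b+ library without passing the test. Ms4a1, which encodes CD20, had 635, 551 and 344 FPKM and 465, 387 and 272 FPKM, with groups that overlapped. Ighm, the heavy chain of IgM, went the other way, at 5667, 5073 and 6887 FPKM and 7108, 6409 and 9278 FPKM, and its groups also overlapped (limma log2 fold change 0.36, adjusted p = 0.75).

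Of 22 B cell transcription factors, 15 were lower and 7 higher in CD11b+ cells, with a median of -0.23. The median was the same without both libraries numbered 3, but -0.13 without CD11b- replicate 3 alone and -0.15 without CD11b+ replicate 1. DESeq2 called 1 lower, Spib, and 3 lower without both libraries numbered 3. The summed level of all 22 was 1997 to 2289.6 FPKM in CD11b- and 1478 to 1669.6 FPKM in CD11b+ libraries. The groups did not overlap for 6 of the 22, all in the lower direction. Apart from Spib these were Tcf3, Ets1, Ebf1, Irf8 and Ikzf1. Tcf3, which encodes E2A, stood at 99.2, 109 and 169 FPKM and 67.1, 90.9 and 74.3 FPKM, CD11b- replicate 3 being the highest, and Ebf1 at 33.6, 33.4 and 58.7 FPKM and 29, 26.2 and 31.5 FPKM with the same library on top. Without both libraries numbered 3 the limma log2 fold change moved from -0.66 to -0.41 for Tcf3 and from -0.47 to -0.27 for Ebf1. Ets1 had 139.7, 126 and 129 FPKM and 114, 107 and 67.8 FPKM, and here CD11b+ replicate 3 was the low one (limma log2 fold change -0.48, and -0.25 without that library). Irf8 had 122, 122 and 129.5 FPKM and 96.5, 107 and 99.01 FPKM, with little spread in either group (limma log2 fold change -0.30, adjusted p = 0.643). Pax5 was not among them, at 30.7, 34.4 and 37.7 FPKM and 32.5, 34.9 and 46.97 FPKM with overlapping groups (limma log2 fold change 0.14, standard error 0.17).

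Of 25 genes of B cell receptor signalling, 22 were lower in CD11b+ cells, 10 of them without overlap, and the median was -0.22 (-0.15 without both libraries numbered 3). DESeq2 called 0 of the 25 at an adjusted p under 0.05, and 3 lower and 1 higher without both libraries numbered 3, and limma gave 3 lower and 1 higher at an unadjusted p under 0.05. The summed level was 2600.4 to 2701 FPKM in CD11b- and 1946 to 2388 FPKM in CD11b+ libraries, which did not overlap. Pik3ap1, the adaptor BCAP of PI3 kinase signalling, stood at 83.4, 72.9 and 107 FPKM against 57.3, 60.8 and 40.4 FPKM, a limma log2 fold change of -0.73 that became -0.40 without both libraries numbered 3 (DESeq2 adjusted p = 0.0579). The inhibitory phosphatases were on the lower side as well. Ptpn6, which encodes SHP-1, had 888, 829 and 763 FPKM and 628, 716 and 460.1 FPKM, and Inpp5d, which encodes SHIP-1, had 48.3, 43.7 and 50.5 FPKM and 37.6, 35.3 and 33.8 FPKM, with limma log2 fold changes of -0.48 and -0.41. Ptpn22, a further phosphatase of lymphocytes, was the exception on the higher side at 9.65, 10.2 and 6.29 FPKM and 18.8, 14.7 and 11.2 FPKM (limma log2 fold change 0.71, adjusted p = 0.57).

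Activation genes split. Among 25 genes of lymphocyte activation, limma gave 5 lower and 5 higher at an unadjusted p under 0.05, and the median was -0.19 (-0.10 without CD11b- replicate 3 and -0.11 without CD11b+ replicate 3). DESeq2 called 2 higher and 0 lower, and 5 higher and 3 lower without both libraries numbered 3. None of the 5 lower ones passed limma or DESeq2 with all libraries. Nfkbie, an inhibitor of NF-kappaB, had 85.2, 90.2 and 100.4 FPKM and 66.5, 71.8 and 47.7 FPKM, and Tnfaip3, which encodes A20, had 16.9, 19.4 and 17.5 FPKM and 13.5, 13.98 and 9.03 FPKM, in both cases with CD11b+ replicate 3 lowest. Their limma log2 fold changes were -0.58 and -0.54, and -0.34 and -0.38 without both libraries numbered 3, and neither passed (limma adjusted p = 0.495 and 0.579). Nfkbid, Nfkb2 and Relb were the other lower ones, with limma log2 fold changes of -0.52, -0.41 and -0.35. The DESeq2 calls with all libraries were Batf and Cd80. Batf, a factor needed for class switching, rose from 10.5, 11.7 and 11.6 FPKM to 24.7, 26.6 and 16.4 FPKM (DESeq2 log2 fold change 0.98, adjusted p = 0.0116). Cd80, a ligand of CD28 on T cells, rose from 0.599, 0.364 and 0.581 FPKM to 4.93, 3.13 and 0.682 FPKM (DESeq2 log2 fold change 2.47, adjusted p = 0.00469), but its value in CD11b+ replicate 3 was barely above the CD11b- libraries, and it is also a gene of macrophages, with a mean of 7.25 FPKM in PMs.

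Of 20 genes of homing, egress and adhesion, 12 had a higher and 8 a lower mean in CD11b+ cells on the log2 scale, the groups did not overlap for 3 higher and 2 lower genes, and the median was 0.01. In this list limma gave 4 lower and 1 higher at an unadjusted p under 0.05, and DESeq2 called 1, Cnr2 (3 lower without both libraries numbered 3). Cnr2 encodes the cannabinoid receptor CB2, which retains B cells in tissue niches (chr4:135895394-135920207, plus strand), and fell from 63.8, 56.2 and 56.8 FPKM to 36.9, 40.3 and 21.8 FPKM (DESeq2 log2 fold change -0.86, standard error 0.25, adjusted p = 0.0361). Ccr7, the receptor that brings lymphocytes into lymph nodes, read 132, 135 and 108 FPKM and 68.8, 109 and 70.2 FPKM, and CD11b+ replicate 2 overlapped the CD11b- libraries. Rgs2, a brake on G protein signals, read 19.98, 20.6 and 41.1 FPKM and 9.16, 10.99 and 21.8 FPKM. Its level was about 2 times higher in replicate 3 than in the other replicates of each group, so the groups overlapped. Of the 10 genes tested for the receptors of BAFF, APRIL and CD40 and their adaptors, 8 were lower, with a median of -0.17 (-0.07 without both libraries numbered 3 and -0.10 without CD11b+ replicate 1), and DESeq2 called 0. In this list limma gave 0 lower and 1 higher at an unadjusted p under 0.05, and the groups did not overlap for 2 lower and 1 higher. The BAFF receptor gene Tnfrsf13c stood at 543, 533 and 436 FPKM and 446, 438 and 372 FPKM, with overlap.

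The variable segments of the immunoglobulin genes record which B cell clones were sampled. Of 281 V segments and V pseudogenes tested, 59 were lower and 15 higher at an unadjusted limma p under 0.05, which is 21% lower beside 3.04% over all genes. Their median log2 fold change was -0.24, and -0.16 without both libraries numbered 3. The 107 segments of the heavy chain locus had a median of -0.35 (29 lower and 7 higher), and the 99 segments of the kappa locus a median of -0.07 (21 lower and 8 higher). Both medians were -0.15 without both libraries numbered 3. DESeq2 called 4 segments higher, which were Igkv12-89, Igkv4-55, Igkv3-4 and Ighv1-36, and unfiltered edgeR called 21 higher and 1 lower. DESeq2 called 6 segments lower, namely Ighv1-5, Ighv10-3, Ighv1-62-2, Ighv14-4, Ighv1-75 and Ighv1-82. These segments are near copies of each other and counting may have split their reads, so the single segments are uncertain.

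**Figure D4:**
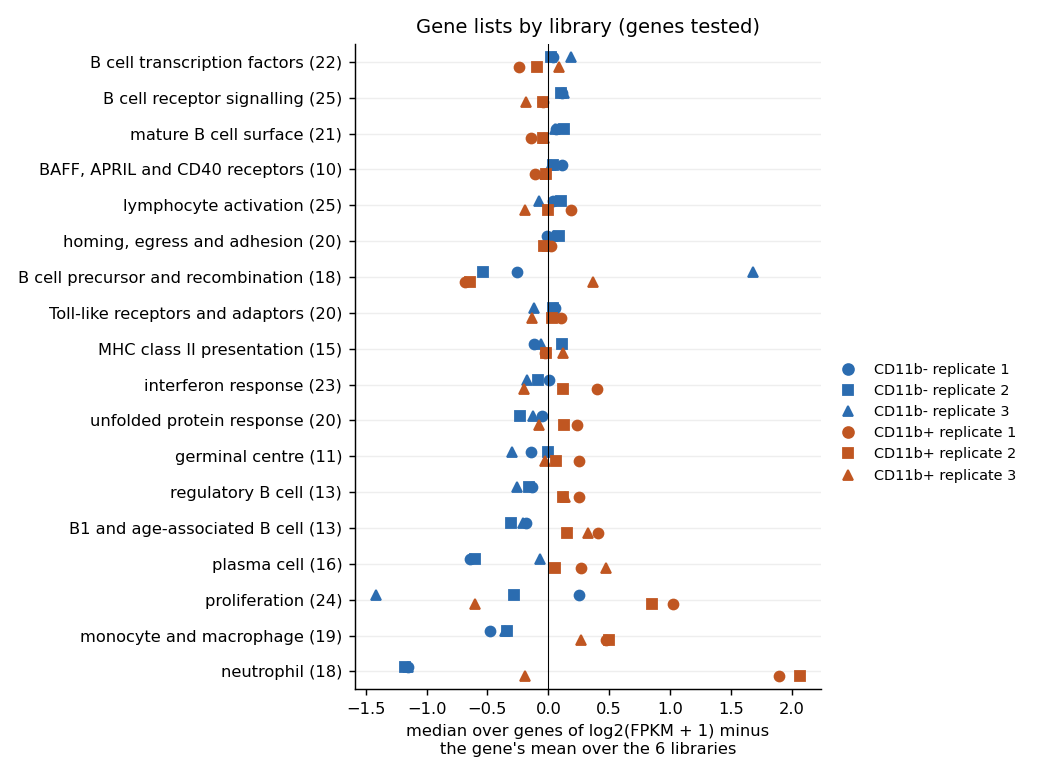
Median deviation of the members of 18 gene lists from each gene's mean over the 6 libraries, on the log2(FPKM + 1) scale of the horizontal axis, with 1 point per library and list. B cell receptor signalling is above 0 in all 3 CD11b- libraries (0.106 to 0.128) and below 0 in all 3 CD11b+ libraries (-0.183 to -0.042), while precursor and proliferation genes differ more between replicates of a group than between the groups.

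Some B-lineage genes were higher in CD11b+ cells. Of 13 genes of B1 and age-associated B cells, limma gave 8 higher and 1 lower at an unadjusted p under 0.05 (background 4.65% and 3.04%), DESeq2 called 5 higher (background 1.89%) and 7 higher and 1 lower without both libraries numbered 3, and the median log2 fold change was 0.57 (0.51 without both libraries numbered 3). Zbtb32, a repressor induced in activated and innate-like B cells (chr7:30589681-30598909, minus strand), stood at 5.25, 3.57 and 1.496 FPKM in CD11b- and 55.7, 32.4 and 19.9 FPKM in CD11b+ libraries. The CD11b+ mean was 10.5 times higher, with a DESeq2 log2 fold change of 3.36 (adjusted p = 5.78e-11). Limma gave an adjusted p of 0.0765 with all libraries and 0.0392 without both libraries numbered 3. Tbx21, which encodes T-bet (chr11:97098071-97115331, minus strand), rose from 1.14, 0.841 and 0.627 FPKM to 3.28, 3.46 and 3.24 FPKM (DESeq2 log2 fold change 1.91, adjusted p = 5.27e-05). Cxcr3, a chemokine receptor (chrX:101731535-101734269, minus strand), rose from 0.589, 0.596 and 0.288 FPKM to 15.7, 9.42 and 5.75 FPKM, or 20.97-fold (DESeq2 log2 fold change 4.36, adjusted p = 1.4e-17). In all 3 genes every CD11b+ library lay above every CD11b- library, and for Zbtb32 and Cxcr3 replicate 3 was the lowest of each group. The remaining DESeq2 calls of the list were Nt5e, which encodes CD73, and Bhlhe41, with adjusted p of 3.73e-07 and 0.0491. Fcrl5, an Fc receptor-like protein of innate-like B cells, stood at 11.9, 7.67 and 4.57 FPKM and 21.1, 14.99 and 13.6 FPKM without passing (DESeq2 adjusted p = 0.1). The gene on the lower side was Fcrla, at 169.9, 172 and 243 FPKM and 116, 141 and 146 FPKM (limma log2 fold change -0.52, DESeq2 adjusted p = 0.192). Cd5, the usual marker of B1a cells, stayed below 1 FPKM in all 6 libraries (0.444, 0.401 and 0.247 and 0.511, 0.504 and 0.576). The study measured Tbx21 by quantitative PCR and reports that M-B cells lacked it, unlike age-associated B cells. By surface staining it found no CD11c on M-B cells, and on most of them high IgD without CD5. It proposes that they differ from both B1 and age-associated B cells.

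Constant regions of switched heavy chains were then examined. Ighg2c, the constant region of IgG2c in C57BL/6 mice (chr12:113285325-113288932, minus strand), was at 0.0226, 1.21 and 0.118 FPKM in CD11b- and 14.9, 29.6 and 37.1 FPKM in CD11b+ libraries. It was the only B-lineage receptor gene that limma called (log2 fold change 4.28, standard error 0.41, adjusted p = 0.0184). Ighg3 (chr12:113356224-113361232, minus strand) rose from 3.41, 2.85 and 0.546 FPKM to 22.9, 18.2 and 33.98 FPKM (DESeq2 log2 fold change 3.44, adjusted p = 6.38e-09, limma adjusted p = 0.0721). Igha rose from 1.61, 3.104 and 1.99 FPKM to 5.76, 7.16 and 35.9 FPKM (DESeq2 adjusted p = 0.0447), and the limma log2 fold change was 1.23 without CD11b+ replicate 3, the highest library. Ighg2b stood at 1.66, 0.9096 and 22.9 FPKM and 38.7, 14.97 and 56.7 FPKM, with CD11b- replicate 3 inside the range of the CD11b+ libraries. The limma log2 fold change of Ighg2b was 2.75, and 3.88 without that library.

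The plasma cell list pointed the same way in most of its members. Of 16 genes, 13 were higher, limma gave 7 higher and 1 lower at an unadjusted p under 0.05, DESeq2 called 5 higher (8 higher and 1 lower without both libraries numbered 3), and the median was 0.70 (0.87 without both libraries numbered 3). The summed level was 284 to 397 FPKM in CD11b- and 544 to 1005 FPKM in CD11b+ libraries. Jchain, which joins IgM and IgA into polymers (chr5:88519809-88527891, minus strand), rose from 6.18, 17.4 and 22.7 FPKM to 101, 83.9 and 449 FPKM (DESeq2 log2 fold change 3.76, adjusted p = 0.00511). CD11b+ replicate 3 was by far the highest, and without it the limma log2 fold change of 3.43 was 2.67. Derl3, a channel component for removing misfolded proteins, rose from 4.59, 3.81 and 8.78 FPKM to 22.98, 17.8 and 30.6 FPKM (DESeq2 log2 fold change 2.04, adjusted p = 3.34e-06). Mzb1, a chaperone for IgM assembly, rose from 15.5, 16.3 and 29.8 FPKM to 59.9, 49.3 and 51.2 FPKM (DESeq2 adjusted p = 0.000445), and Fkbp11 from 1.64, 1.96 and 2.35 FPKM to 7.37, 6.34 and 14.9 FPKM (DESeq2 adjusted p = 7.82e-07). In Derl3, Mzb1 and Fkbp11 the CD11b- values stayed below all CD11b+ values. Xbp1, the factor that drives the secretory programme, stood at 55.4, 51.7 and 75.8 FPKM and 95.7, 92.2 and 103 FPKM without overlap (DESeq2 adjusted p = 0.0659, and 2.26e-07 without both libraries numbered 3). Prdm1, which encodes BLIMP-1, stood at 0.0859, 0.324 and 1.99 FPKM and 2.21, 1.41 and 1.51 FPKM, with CD11b- replicate 3 among the CD11b+ values. The sort did not exclude plasma cells by a marker named in the sources, and fewer or more plasma cells among the CD11b+ cells cannot be told apart from a change within each cell.

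**Figure D5:**
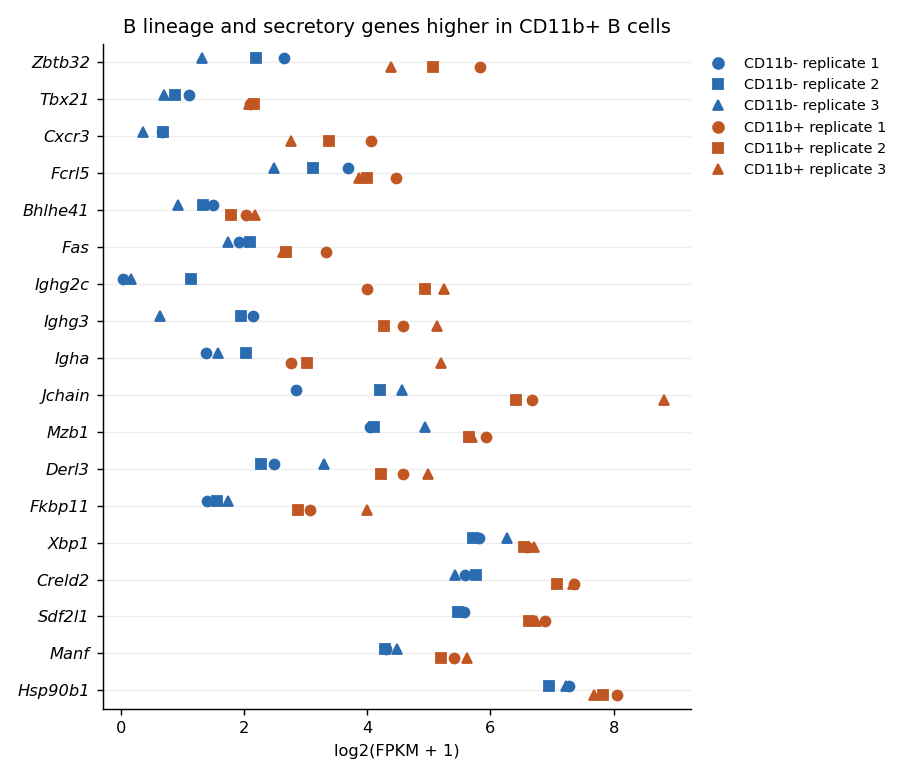
B-lineage and secretory genes with a higher mean in CD11b+ cells, 1 point per library on a horizontal axis of log2(FPKM + 1), with colour for the group and shape for the replicate. Zbtb32, Cxcr3, Ighg2c, Jchain and Creld2 show a gap between the groups, and the spread among CD11b+ libraries is widest for Jchain (83.9 to 449 FPKM).

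Of 20 genes of the unfolded protein response, DESeq2 called 3 higher and 0 lower (6 higher and 0 lower without both libraries numbered 3, and 0 lower also at an unadjusted limma p under 0.05), the groups did not overlap for 6 in the higher direction, and the median log2 fold change was 0.24 (0.15 without CD11b+ replicate 1). Creld2, a chaperone gene induced by stress of the endoplasmic reticulum (chr15:88819646-88826683, plus strand), was counted with the plasma cell list and was called by limma. It rose from 46.8, 53.3 and 41.9 FPKM to 162, 135 and 161 FPKM (limma log2 fold change 1.67, standard error 0.15, adjusted p = 0.0135), and its log2 fold change stayed between 1.59 and 1.76 when each library was left out in turn. Sdf2l1 (chr16:17130138-17132383, minus strand) rose from 46.3, 43.4 and 45.4 FPKM to 117, 97.8 and 106 FPKM (limma log2 fold change 1.22, standard error 0.12, adjusted p = 0.0275). Both genes had tight replicates, and every CD11b+ value was more than 2 times the highest CD11b- value. Manf rose from 18.8, 18.6 and 21.3 FPKM to 41.4, 35.9 and 48.3 FPKM (DESeq2 log2 fold change 1.08, adjusted p = 9.19e-06), with the reservation that it overlaps other annotated genes. Hsp90b1, the chaperone GRP94, rose from 153, 123 and 149 FPKM to 266, 225 and 204 FPKM (DESeq2 log2 fold change 0.69, adjusted p = 0.0174). Dnajc3 stood at 15.4, 13.8 and 15.3 FPKM and 21.2, 20.4 and 25.8 FPKM, without overlap (DESeq2 adjusted p = 0.0747). The best known member did not follow, as Hspa5, which encodes BiP, read 199, 168 and 170.2 FPKM and 252, 237 and 139 FPKM, and CD11b+ replicate 3 was the lowest of the 6. Syvn1, a ubiquitin ligase of the same pathway, read 79.9, 77.9 and 96.995 FPKM and 61.5, 78.5 and 60.7 FPKM, with overlap (limma log2 fold change -0.34).

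A known sequence in promoters of such genes is the ER stress element, written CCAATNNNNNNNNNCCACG, where N is any base. It was searched on both strands in windows from 250 bases before to 50 bases after the gene start, taken from RefSeq on GRCm38.p6. It was present in 39 of 32851 promoters (0.119%) and in 37 of 27025 genes (0.137%). Of the 20 list members, 17 matched the promoter table and 7 held the element, namely Hspa5, Hsp90b1, Calr, Canx, Pdia6, Dnajc3 and Syvn1. Of the 15 genes limma called, 13 matched and 1 held it, which was Creld2. The element was thus present in members that were higher as well as in Hspa5 and Syvn1, whose groups overlapped, and a match in letters is not a bound site. The first 170 bases of 3 windows (from 250 to 81 bases before the start) are printed below because they carry the element in genes whose groups did not overlap, with the fixed letters of the element, or their reverse complement, in capitals. The Creld2 window lies at chr15:88819396-88819565 on the plus strand, with the element on the opposite strand from -126 to -108. The Hsp90b1 window lies at chr10:86705525-86705694 on the minus strand and holds 2 elements, from -212 to -194 and, reversed, from -107 to -89. The Dnajc3 window lies at chr14:118937682-118937851 on the plus strand, with the element from -105 to -87.
Creld2: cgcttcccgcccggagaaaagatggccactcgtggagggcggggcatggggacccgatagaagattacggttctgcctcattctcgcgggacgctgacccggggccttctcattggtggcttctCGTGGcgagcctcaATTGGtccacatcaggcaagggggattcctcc
Hsp90b1: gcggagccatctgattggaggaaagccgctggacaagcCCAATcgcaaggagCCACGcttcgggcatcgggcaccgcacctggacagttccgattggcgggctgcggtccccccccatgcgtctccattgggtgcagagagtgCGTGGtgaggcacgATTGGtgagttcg
Dnajc3: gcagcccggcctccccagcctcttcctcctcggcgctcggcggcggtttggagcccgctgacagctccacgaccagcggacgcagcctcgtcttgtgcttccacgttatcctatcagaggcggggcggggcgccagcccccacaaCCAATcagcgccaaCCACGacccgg

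Proliferation genes were higher in the mean but differed between replicates. Of 24 genes, 22 had a higher mean in CD11b+ cells, with a median of 0.91 (0.93 without both libraries numbered 3, but 0.44 without CD11b- replicate 3, 0.60 without CD11b+ replicate 1 and 1.47 without CD11b+ replicate 3), but the groups did not overlap for only 2, and DESeq2 called 4. The summed level ran from 231 to 642 FPKM in CD11b- and from 364 to 1013 FPKM in CD11b+ libraries, the low value of each group being replicate 3. Mki67, which encodes Ki-67, read 16.3, 11.4 and 4.25 FPKM and 33.4, 37.9 and 17.6 FPKM (DESeq2 log2 fold change 1.45, adjusted p = 0.0313), and Ccnb2, a mitotic cyclin, read 31.9, 19.4 and 8.52 FPKM and 85.1, 71.8 and 24.8 FPKM (DESeq2 adjusted p = 0.0476). Within CD11b+ cells, replicate 3 was the lowest for both genes. Tk1, the thymidine kinase of S phase, had the tightest values, 10.2, 9.196 and 8.31 FPKM and 17.3, 18.6 and 15.9 FPKM (DESeq2 log2 fold change 0.89, adjusted p = 0.00029), and it overlaps another annotated gene. Without both libraries numbered 3, DESeq2 called 17 of the 24 higher.

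Of 23 interferon response genes, 15 were higher, limma gave 4 higher and 1 lower at an unadjusted p under 0.05, DESeq2 called 1 (2 without both libraries numbered 3), and the median was 0.27 (0.14 without CD11b- replicate 3 and 0.08 without CD11b+ replicate 1). The gene called with all libraries was Isg15, a ubiquitin-like protein, which rose from 9.29, 9.78 and 7.81 FPKM to 23.004, 17.8 and 22.8 FPKM (DESeq2 log2 fold change 1.22, adjusted p = 0.00115). Irf7 and Bst2 also had groups that did not overlap, with limma log2 fold changes of 0.49 and 0.56, and neither passed DESeq2 (adjusted p = 0.232 and 0.222). Of 13 genes tested from a list of regulatory B cells, limma gave 8 higher and 1 lower at an unadjusted p under 0.05. DESeq2 called 2 of the 15 genes on the list, Tigit and Nt5e (3 without both libraries numbered 3). Tigit, an inhibitory receptor, rose from 0.0652, 0 and 0.102 FPKM to 2.96, 2.04 and 4.97 FPKM (DESeq2 adjusted p = 2.27e-07). Il10, a cytokine whose production is among the functions that characterise regulatory B cells, stood at 0.549, 0 and 0 FPKM and 2.57, 1.57 and 0.715 FPKM. Its groups did not overlap, but its highest CD11b- value was close to its lowest CD11b+ value. Il10 did not pass (DESeq2 adjusted p = 0.3, limma adjusted p = 0.46), at a limma log2 fold change of 1.12 and an unadjusted limma p of 0.0083. The study reports Il10 as higher in M-B cells in its RNA sequencing trials and by quantitative PCR. It also found secreted IL-10 protein and a reporter signal in M-B cells. The lower gene was Il12a, a subunit of IL-35 and IL-12, at 45.4, 56.3 and 68.3 FPKM and 41.8, 41.6 and 39.8 FPKM (limma log2 fold change -0.44).

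Markers of other cell types differed beside these results, and their part in them was not tested. All 18 neutrophil genes had a higher mean in CD11b+ cells and DESeq2 called 16, and their summed level was 2.07 to 3.31 FPKM in CD11b- and 219.9 to 1619 FPKM in CD11b+ libraries, with replicate 3 lowest. Of the 19 monocyte and macrophage genes DESeq2 called 11 higher, and the sums were 507 to 627 FPKM and 816 to 980.3 FPKM, against 25638 to 61344 FPKM in PMs. Ctsg and Cd300e had no read in any CD11b- library. Erythroid genes summed to 17.2 to 38.1 FPKM and 51.5 to 60.6 FPKM, and basophil and mast cell genes to 0.173 to 0.458 FPKM and 3.21 to 4.54 FPKM. T cell genes summed to 12.2 to 20.8 FPKM and 14.7 to 24.7 FPKM, and NK cell genes to 0.764 to 2.24 FPKM and 1.04 to 6.18 FPKM, both with overlap. All 9 T cell genes tested by limma had a higher mean in CD11b+ cells, 3 without overlap. Over the whole lists, DESeq2 called 2 of 13 T cell genes higher (0 without both libraries numbered 3). It called 1 of 10 NK cell genes higher (2 without both libraries numbered 3). Tbx21, Cxcr3 and Tigit are also genes of T and NK cells. Cd4, Cd8a and Cd8b1 had no read in CD11b- libraries, nor had the NK genes Ncr1, Gzma, Gzmb, Eomes and Klra8, of which Klra8 had none in CD11b+ libraries either.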

How the data were processed

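Sorted cells were sequenced as SMART-seq HT libraries with paired ends. Per the study's methods and the submitters' processing notes, the authors trimmed reads (Trim Galore 0.4.4, Trimmomatic 0.36, cutadapt 1.16), aligned them with STAR 2.7.2b to GRCm38 and counted them per gene with featureCounts 1.6.1. The sources used here do not say whether counting used strand. The main table holds FPKM of 55322 genes as the authors deposited it. A second table of 11063 genes holds counts per gene that the authors divided by 1 size factor per library (a normalized signal), chosen by a p-value of a comparison that they do not name. It served only as an alternative, and the cluster numbers in it were not used.

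Here limma 3.58.1 (R 4.3.3, eBayes with trend, two-sided, Benjamini-Hochberg) was fitted to log2(FPKM + 1) of the 6 libraries for genes with a mean of at least 0.05 FPKM, so fold changes of low genes are understated. FPKM times gene length gave whole reads for 100% of values (within 0.05 reads), which were tested with edgeR 4.0.16 and DESeq2 1.42.0 (genes with at least 10 reads for DESeq2) as alternatives. Code was tested on simulated data. Gene positions are from GENCODE M21 (GRCm38), matched by Ensembl ID for 52046 genes; the submitters' notes also list GRCm39.

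Named genes were all limma calls, the 20 lower genes of smallest limma p (no overlap, at least 5 FPKM in CD11b- cells, no immunoglobulin segments or provisional gene models), up to 20 genes called lower by edgeR or DESeq2 at 1 FPKM or more, the extremes of each list, the marker genes and further list members. The members, lists and rules were chosen with earlier results of these data known. The replicate numbers in the titles were not taken to pair the samples. Some genes that these rules name are not reported here, though counts include them.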

Additional observations from a re-analysis of the deposited data

How the results depend on the processing

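Against 15 higher genes in limma, there were 34 with log2(FPKM + 0.1), 2 with no filter, 31 when genes needed a mean of 1 FPKM or more, 31 with all 9 libraries in 1 fit, 9 with quantile normalization, 42 with filtered edgeR, 416 with unfiltered edgeR, 328 with DESeq2 and 59 with edgeR on the second table. Leaving out 1 library gave 3 to 40 higher genes in limma (40 without CD11b+ replicate 3, and 7 or fewer without any other), 198 to 364 in DESeq2, 1 to 65 in filtered edgeR and 267 to 558 in unfiltered edgeR. Without both libraries numbered 3, an alternative chosen after seeing the data, as were the DESeq2 and edgeR fits with a library left out, there were 29 in limma, 514 in DESeq2, 223 in filtered edgeR and 563 in unfiltered edgeR. Against 0 lower genes in limma, there were 3 with log2(FPKM + 0.1), 5 with all 9 libraries, 155 with unfiltered edgeR and 64 with DESeq2. With 1 library left out there were 35 to 100 lower genes in DESeq2 and 36 to 274 in unfiltered edgeR (36 without CD11b- replicate 3, 274 without CD11b+ replicate 3), and 0 in limma and filtered edgeR. Without both libraries numbered 3 there were 230 in DESeq2, 30 in filtered edgeR and 209 in unfiltered edgeR. The cause of these differences was not tested.

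Deviations of libraries with the same title number correlated at 0.203, -0.0115 and 0.167, so not every pair was over 0.1 and the title numbers were not taken to pair the samples. Only replicates 1 and 3 also share the number in their descriptions (0.203 and 0.167, the highest of the 9 correlations), and with 2 such pairs pairing by that number was left undecided. With the number in the titles as a replicate block there were 16 higher and 0 lower genes, and with the number in the descriptions as a replicate block 33 higher and 0 lower.

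Reversals of direction among named genes were in precursor genes and in genes with changes near 0. The limma log2 fold change of Igll1 turned to 1.27 with log2(FPKM + 0.1), ran from -1.05 to 1.83 with 1 library left out and turned to 0.88 without both libraries numbered 3. That of Il7r ran from -1.50 to 0.98 with 1 library left out (0.98 without CD11b- replicate 3) and was 0.018 without both libraries numbered 3. Rag1 ran from -1.31 to 0.63 (0.63 without CD11b- replicate 3) and Pax5 from -0.019 to 0.24 (-0.019 without CD11b+ replicate 3). Ptprc was -0.0070 with median-ratio scaling, -0.015 with quantile normalization, -0.015, -0.032 and -0.021 with filtered edgeR, unfiltered edgeR and DESeq2, -0.018 on the second table, -0.16 to 0.13 with 1 library left out and -0.14 without both libraries numbered 3. Gimap9 ran from -0.11 to 0.028 with 1 library left out (0.028 without CD11b+ replicate 2).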

Other observations

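Of 8 GIMAP genes tested, small GTPases that influence lymphocyte survival, 6 had a limma log2 fold change above 0 and 2 below, the groups did not overlap for 4, all higher, and DESeq2 called 1 higher and 0 lower. The family was chosen after its values were seen. Gimap4, at the upper end, rose from 104, 108 and 92.3 FPKM in CD11b- to 224, 187 and 212 FPKM in CD11b+ libraries (DESeq2 log2 fold change 1.01, adjusted p = 1.44e-06, limma adjusted p = 0.0726). Gimap9, at the lower end, read 70.7, 77.4 and 73.8 FPKM and 73.1, 63.8 and 77.7 FPKM, with groups that overlapped (limma log2 fold change -0.05).

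Genes of antigen presentation and lipid synthesis differed little. Of 15 genes of MHC class II presentation DESeq2 called 0 (1 lower and 0 higher at an unadjusted limma p under 0.05), the median limma log2 fold change was 0.03 (-0.03 to 0.12 with 1 library left out, and -0.02 without both libraries numbered 3), and the summed level was 14919.8 to 17682 FPKM in CD11b- and 15235 to 16121 FPKM in CD11b+ libraries. The 22 genes of cholesterol and fatty acid synthesis had a median of -0.02 (-0.11 to -0.0021 with 1 library left out, and 0.0015 without both libraries numbered 3), but their sums did not overlap, at 390.4 to 428 FPKM and 324 to 353 FPKM.

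Of 84 genes of cytosolic ribosomal proteins, 83 had a higher mean in CD11b+ cells, with a median of 0.36 that became 0.14 without CD11b+ replicate 3 and 0.15 without both libraries numbered 3. Of 75 nuclear genes of oxidative phosphorylation, 68 were higher, with a median of 0.27, and 0.21 without that library and 0.16 without both libraries numbered 3. DESeq2 called 0 of either list, and limma gave 6 and 10 higher genes at an unadjusted p under 0.05.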
